A study of Mus musculus with 14 samples.

Results

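The genes described here, En1, Eda, Edar, Edaradd, Dkk2, Dkk4, Shh, Foxc1, Foxi1 and Lgr6, are 10 genes with known roles in volar skin, the hairless skin of palms and soles, or in sweat gland development. They were taken by symbol from a table of 56691 gene IDs in which all 10 are present. Of these, 9 passed the filter on low counts and were tested. Foxi1 did not pass. The series sequenced ribosomal RNA-depleted total RNA of whole paws of newborn mice in a study of keratin regulation in palm and sole epidermis. The 14 libraries fall into 4 groups: postnatal day 3 (P3) paws labelled Krt9-/- (Krt9 null below, n = 3), P3 wild-type (WT) paws (n = 5), postnatal day 0 (P0) Krt9 null paws (n = 2) and P0 WT paws (n = 4). The labels give sex and litter for each library, but not the strain, the kind of allele, or whether forepaws or hind paws were taken. A paw holds dorsal skin, muscle, bone and vessels beside volar skin, so each value is an average over all of them, and fewer cells of a type cannot be told apart from less RNA per cell.

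In mice, eccrine sweat glands are found in the pads of the paws, where buds of the volar epidermis grow down, lengthen into ducts and form secretory coils around birth. The signals that start and shape these buds include ectodysplasin, a ligand of the tumour necrosis factor family that acts through its receptor Edar and the adaptor Edaradd on the transcription factor NF-kB, together with Wnt and hedgehog signals. En1 specifies the ventral limb ectoderm, secreted Dkk proteins restrain Wnt signals at the receptor, and forkhead factors act later in ducts and secretory cells.

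Counts per library lay between 28947715 and 41004173. All values below are CPM, read counts relative to the TMM-scaled library total, unless said otherwise, and a gene is called where edgeR's quasi-likelihood test gives an adjusted p under 0.05 over the 21619 genes tested. Krt9 itself lay at 7.74 to 25.2 CPM in P3 Krt9 null paws against 32.9 to 83.0 CPM in P3 WT paws, and at 5.32 to 6.08 CPM in P0 Krt9 null paws against 2.09 to 7.61 CPM in P0 WT paws, so its RNA did not separate the genotypes on P0. Krt19, a keratin of simple epithelia, was the 1 gene called between the genotypes on each day, at 48.9 to 209 CPM in the 5 Krt9 null libraries and 0.865 to 1.95 CPM in the 9 WT libraries. All 14 epithelial and all 12 dermal fibroblast markers were detected in each group. The deposited columns form 2 alphabetical runs, A (8 libraries) and B (6 libraries), that cut across the groups and are not described as batches in the labels. With the run as a term in the fit, 23.2% of all genes were called for it. The log2 ratio of the collagen partner chains Col1a1 and Col1a2 lay between 0.33 and 0.46 in run A and between -0.13 and 0.083 in run B. By its label, P0 WT replicate 4 is a female, and it held 0.181 CPM of Xist and 0.155 CPM of Ddx3y.

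Among the 9 tested genes, the Wnt inhibitor Dkk4 was the 1 that differed between groups past the test. It was lower on P3 than on P0 in WT paws. Between Krt9 null and WT paws, 0 of the 9 were called on either day, with 0.00463% of all genes called on P3 and 0.00463% on P0. At an unadjusted p under 0.05, edgeR had 1442 genes on P3 and 1289 on P0, among them 0 of the 9 on P3 and Eda and Dkk2 on P0. DESeq2 called 0 of the 9 on P0. On P3 it called 0 of those with an adjusted p, which Dkk4 lacked. Between the days, 1 of the 9 was called in WT paws, where 16.6% of all genes were called, 8.49% higher and 8.07% lower, and 0 of 9 in Krt9 null paws, where 0.768% of all genes were called, 0.338% higher and 0.43% lower. In Krt9 null paws 3435 genes, Edar and Dkk4 among them, had day differences with an unadjusted p under 0.05 by edgeR. In DESeq2 0 of the 9 passed. By edgeR no gene was called for the difference between the genotype effects of the 2 days (0% of all genes). There 1644 genes, Dkk2 among them, were under an unadjusted p of 0.05. DESeq2 called 0 of those of the 9 with an adjusted p, which Dkk4 lacked here as well. The share of all genes that DESeq2 called in the genotype, Krt9 null and interaction comparisons is not given here.

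**Figure D1:**
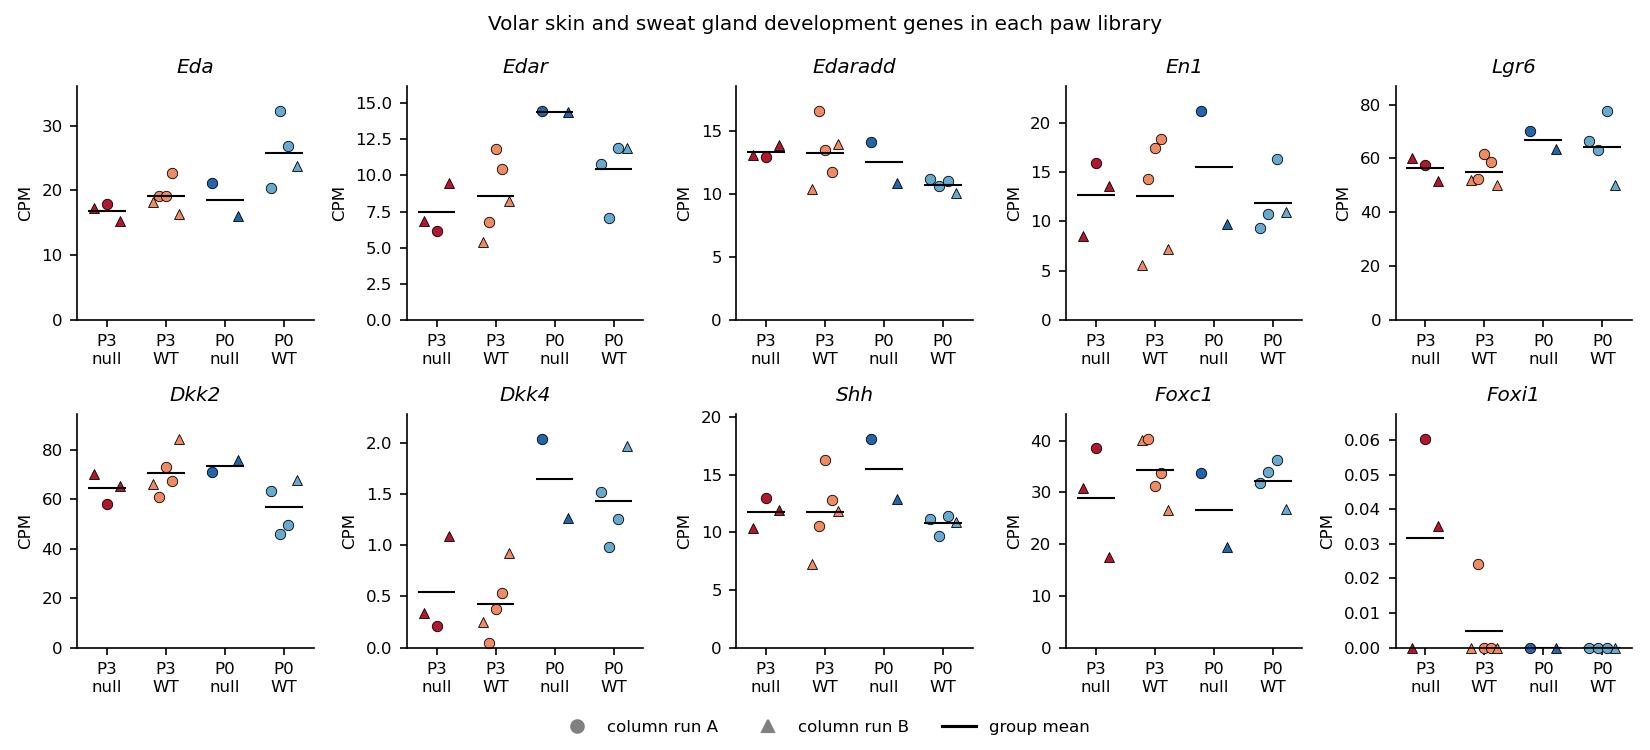
CPM of each of the 10 genes in each library, on linear axes that start at 0. Groups run from P3 Krt9 null to P0 WT, circles are libraries of column run A, triangles those of run B, and bars are group means. Dkk4 lies lower in every P3 WT library than in any P0 WT library, Edar lies highest in the 2 P0 Krt9 null libraries, and Foxi1 holds at most 2 counts in a library.

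Per kilobase of exon, the 10 genes spanned a wide range of levels over the 14 libraries. Dkk2 had the highest mean at 17.7 CPM per kb, followed by Lgr6 at 8.70, Foxc1 at 5.39, En1 at 4.88 and Shh at 4.23 CPM per kb. The ectodysplasin genes followed in the order ligand, receptor, adaptor, with Eda at 3.00, Edar at 2.67 and Edaradd at 1.87 CPM per kb. Dkk4 at 0.694 and Foxi1 at 0.0036 CPM per kb stood at the low end. The ranges over libraries did not overlap between Dkk2 and Lgr6, between Lgr6 and Foxc1, or between Dkk4 and Foxi1. From Foxc1 down to Dkk4 each neighbouring pair overlapped in range, and Foxc1 was above En1 in 8 of 14 libraries, En1 above Shh in 9, Shh above Eda in 12, and Eda above Edar in 10 libraries. Edaradd was above Dkk4 in all 14 libraries.

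The ligand Eda (ENSMUSG00000059327.10, chromosome X) lay at 17.2, 17.9 and 15.3 CPM in P3 Krt9 null paws and at 18.2, 19.1, 19.1, 22.6 and 16.4 CPM in P3 WT paws. On P0 it lay at 21.1 and 16.0 CPM in Krt9 null paws and at 20.4, 32.3, 26.9 and 23.8 CPM in WT paws. The P0 WT libraries held the 3 highest values of the series, and in every comparison the ranges of the groups overlapped. The day difference in WT paws was -0.43 on the log2 scale (SE 0.15, 1.35-fold lower on P3, edgeR's adjusted p = 0.0631). It was past an unadjusted p of 0.05, as were 6645 genes by edgeR, and not past the adjusted one. DESeq2 gave -0.43 with adjusted p = 0.0449, in a test that called 21.7% of all genes, and with the column run as a term edgeR gave -0.39 with adjusted p = 0.0308, where 25.8% were called. Over the 30 alternative settings this day difference was called in 4, and in 0 of those that left out 1 library. It was 0.03 with litter numbers as a fixed term. The genotype difference was -0.19 on P3 (SE 0.17, edgeR's adjusted p = 0.932) and -0.47 on P0 (SE 0.20, adjusted p = 0.831).

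The receptor Edar (ENSMUSG00000003227.5, chromosome 10) lay at 6.86, 6.13 and 9.48 CPM in P3 Krt9 null paws and at 5.42, 6.81, 11.9, 10.5 and 8.25 CPM in P3 WT paws. The P0 libraries held 14.5 and 14.4 CPM in Krt9 null paws and 10.8, 7.07, 11.9 and 11.9 CPM in WT paws. Both P0 Krt9 null libraries, 1 of each column run, exceeded the other 12 libraries. The log2 difference between P3 and P0 was -0.95 in Krt9 null paws (SE 0.32, 1.94-fold lower on P3, unadjusted p = 0.00903, edgeR's adjusted p = 0.162) and -0.29 in WT paws (SE 0.23, adjusted p = 0.446). Neither was called, and the difference between them, -0.67 (SE 0.40), had an adjusted p = 0.723. With no filter on low counts the day difference in Krt9 null paws was called, at -0.95 with edgeR's adjusted p = 0.0177, as were 4.6% of all genes in that fit. The genotype difference of Edar was -0.20 on P3 (SE 0.26, edgeR's adjusted p = 0.963), with -0.51 in run A and 0.28 in run B. On P0 it was 0.47 (SE 0.30, adjusted p = 0.857), and the groups did not overlap, as in 11.3% of all tested genes.

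Promoter sequences, from 250 bases before to 50 after the start, were found in RefSeq (GRCm38.p6) for 8 of the 10 genes, all but Dkk4 and Shh. They were searched on both strands for the Wnt effector core CTTTGA, the Gli sequence GACCNCCCA, the forkhead sequence GTAAACA and the NF-kB motif. Edar is shown because its window is the 1 of the 8 with a match to the Wnt core, in capitals and 233 bases before the start, as in 16.0% of 32851 RefSeq promoters. It lies on the minus strand at chr10:58675647-58675946. Positions count from the RefSeq start, and 0 GENCODE M21 transcripts of Edar, and 0 of Edaradd, hold the last 50 bases of the window, against 1 to 8 for each of the others.
Edar: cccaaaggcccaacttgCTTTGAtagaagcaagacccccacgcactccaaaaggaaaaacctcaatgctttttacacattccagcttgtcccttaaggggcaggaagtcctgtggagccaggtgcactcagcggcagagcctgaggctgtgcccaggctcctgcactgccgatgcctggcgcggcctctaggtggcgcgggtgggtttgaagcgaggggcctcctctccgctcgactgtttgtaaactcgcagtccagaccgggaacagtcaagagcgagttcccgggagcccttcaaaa
Foxc1 is shown because its window is the 1 of the 8 that matches the NF-kB motif, on both strands at the same position, in capitals and 75 bases before the start, a motif found in 8.46% of promoters. It lies on the plus strand at chr13:31806396-31806695.
Foxc1: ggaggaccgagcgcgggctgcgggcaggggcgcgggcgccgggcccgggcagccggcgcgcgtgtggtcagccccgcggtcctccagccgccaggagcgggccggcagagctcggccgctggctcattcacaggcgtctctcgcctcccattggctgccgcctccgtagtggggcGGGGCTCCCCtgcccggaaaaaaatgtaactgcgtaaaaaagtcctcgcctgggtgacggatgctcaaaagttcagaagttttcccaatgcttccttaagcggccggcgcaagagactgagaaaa
The windows of En1, Eda, Edaradd, Dkk2, Foxi1 and Lgr6 held none of the 4 searched motifs, and none of the 8 held the Gli sequence, which 0.977% of promoters hold. A match or its absence in this window says nothing of binding.

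The adaptor Edaradd (ENSMUSG00000095105.3, chromosome 13), which links Edar to the NF-kB cascade, lay at 13.1, 12.9 and 13.9 CPM in P3 Krt9 null paws and at 10.4, 16.6, 13.5, 11.8 and 13.99 CPM in P3 WT paws. On P0 it lay at 14.1 and 10.9 CPM in Krt9 null paws and at 11.2, 10.6, 11.1 and 10.1 CPM in WT paws. The P0 WT libraries were close together and overlapped only the lowest P3 WT library and the lower P0 Krt9 null library. The day difference was 0.11 in Krt9 null paws (SE 0.20, edgeR's adjusted p = 0.834) and 0.29 in WT paws (SE 0.14, adjusted p = 0.185), and in WT paws the sign was opposite to that of Eda. The genotype difference was 0.03 on P3 and 0.21 on P0 (edgeR's adjusted p = 0.990 and 0.880).

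Of 14 tested partners in the ectodysplasin and NF-kB list, 3 were called lower and 1 higher on P3 in WT paws. By edgeR, 8.07% of all genes were called lower and 8.49% higher there. The median log2 difference of the list was -0.13 against -0.01 over all genes. Without any 1 of WT replicates 1, 2 and 3 of P0 or 1, 2 and 5 of P3, 1 was called lower and 0 higher. The share of all genes called in those fits is not given here. Nfkbia, an inhibitor of NF-kB and a target of it, averaged 50.3 ± 7.64 CPM in P3 WT paws (SD, n = 5) and 106 ± 30.5 CPM in P0 WT paws (SD, n = 4), with a log2 difference of -1.10 (SE 0.17, edgeR's adjusted p = 0.00144). Rela, an NF-kB subunit, was lower by 1.39-fold (-0.48, adjusted p = 0.0497) and Ltb, a lymphotoxin, higher by 2.49-fold (1.31, adjusted p = 0.0487). Fgf20, a target of Edar in hair placodes, lay at 0.165, 0, 0.507, 0.0664 and 0.494 CPM in P3 WT paws and at 1.44, 1.65, 1.57 and 1.89 CPM in P0 WT paws. The groups did not overlap, as in 16.7% of all tested genes, and the log2 difference was -2.69 (SE 0.80, edgeR's adjusted p = 0.0360). Fgf20 of Krt9 null paws lay at 0, 0.151 and 0.667 CPM on P3 and at 1.23 and 1.76 CPM on P0, with a difference of -2.74 that was not called (SE 1.08, adjusted p = 0.236).

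The Wnt inhibitor Dkk2 (ENSMUSG00000028031.7, chromosome 3), which in mice is expressed in hairless plantar skin and blocks Wnt signals there, was the most abundant of the 10 genes. It lay at 70.2, 58.1 and 65.5 CPM in P3 Krt9 null paws and at 66.3, 61.1, 73.1, 67.5 and 84.5 CPM in P3 WT paws. In P0 paws the values were 71.2 and 75.8 CPM in Krt9 null paws and 63.5, 46.0, 49.7 and 67.7 CPM in WT paws. WT replicates 2 and 3 of P0 were the lowest of all 14 libraries, and both P0 Krt9 null libraries exceeded every P0 WT library, a lack of overlap seen in 11.3% of all tested genes. The genotype difference was -0.14 on P3 (SE 0.15, edgeR's adjusted p = 0.952) and 0.37 on P0 (SE 0.17, 1.29-fold, unadjusted p = 0.0448, adjusted p = 0.831). The difference between the days' genotype effects was -0.51 (SE 0.22, unadjusted p = 0.0397, edgeR's adjusted p = 0.635). In WT paws Dkk2 was 0.32 higher on P3 on the log2 scale (SE 0.13, adjusted p = 0.123), and within run A alone it was called, at 0.38 with edgeR's adjusted p = 0.0336, in a fit that called 30% of all genes. In run B it was 0.22 with adjusted p = 0.313.

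Dkk4 (ENSMUSG00000031535.8, chromosome 8), a Wnt inhibitor and a target of Eda and Wnt signals in the placodes of skin appendages, lay at 0.335, 0.212 and 1.09 CPM in P3 Krt9 null paws and at 0.248, 0.0481, 0.381, 0.531 and 0.927 CPM in P3 WT paws. On P0 it lay at 2.04 and 1.26 CPM in Krt9 null paws and at 1.52, 0.978, 1.25 and 1.97 CPM in WT paws. Every P3 WT library was below every P0 WT library, and every P3 Krt9 null library below both P0 Krt9 null libraries. Between the days, the groups did not overlap for 25.6% of all tested genes in Krt9 null paws and for 16.7% in WT paws. These values rest on few counts, 2 to 31 in a P3 library and 26 to 76 in a P0 library.

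Dkk4 fell by 1.83 on the log2 scale in WT paws (SE 0.57, 95% interval -3.11 to -0.55, 3.55-fold lower on P3, edgeR's adjusted p = 0.0401). For Krt9 null paws the day difference was -1.86 (SE 0.76, edgeR's adjusted p = 0.249), and the difference between the 2 was -0.03 (95% interval -2.28 to 2.22), an interval that spans changes in both directions. The genotype difference was 0.25 on P3 (SE 0.64) and 0.28 on P0 (SE 0.68), with edgeR's adjusted p = 0.982 and 0.964. Over 30 alternative settings the WT day difference stayed negative, between -2.22 and -1.11, with adjusted p between 0.000878 and 0.504, and it was called in 18. The call ended with litter as a block (limma voom -1.87, adjusted p = 0.0851, with litters within a day, and edgeR -2.003, adjusted p = 0.504, with litter numbers as a fixed term). Within a day few libraries share a litter. The fixed term takes equal numbers on both days as the same litter, which the labels do not state, and leaves few residual degrees of freedom. The part of litter in the Dkk4 difference was not tested. With no term for labelled sex it ended as well, at -1.76 (edgeR's adjusted p = 0.0505). It also ended without any 1 of WT replicates 1, 3 and 4 of P0 or 1 to 4 of P3, with edgeR's adjusted p between 0.0620 and 0.114. Within run A the difference was -2.05 (adjusted p = 0.0330) and within run B -1.11 (adjusted p = 0.362).

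In WT paws the epithelial markers moved with the day as well. Of 14 in the list, 4 were called lower on P3, where 8.07% of all genes were called lower, and the list median was -0.48. Their summed level lay between 8366 and 10515 CPM in P3 WT paws and between 7921 and 14556 CPM in P0 WT paws. In Krt9 null paws 0 of the 14 were called between the days, and the median was 0.14, of the opposite sign. With the mean level of these markers as a covariate, Dkk4 in WT paws was at -1.38 with edgeR's adjusted p = 0.248. The epithelial score, the mean log2(CPM + 1) of the 14 markers, was 8.12 in WT replicate 4 of P0 and 8.75 to 8.94 in the other 3 WT libraries of that day. That library held the highest Dkk4 of its group, 1.97 CPM. Within run A alone the median day difference of the epithelial list was -0.53, and within run B 0.39. The part of epithelial content in the Dkk4 difference was not tested.

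**Figure D2:**
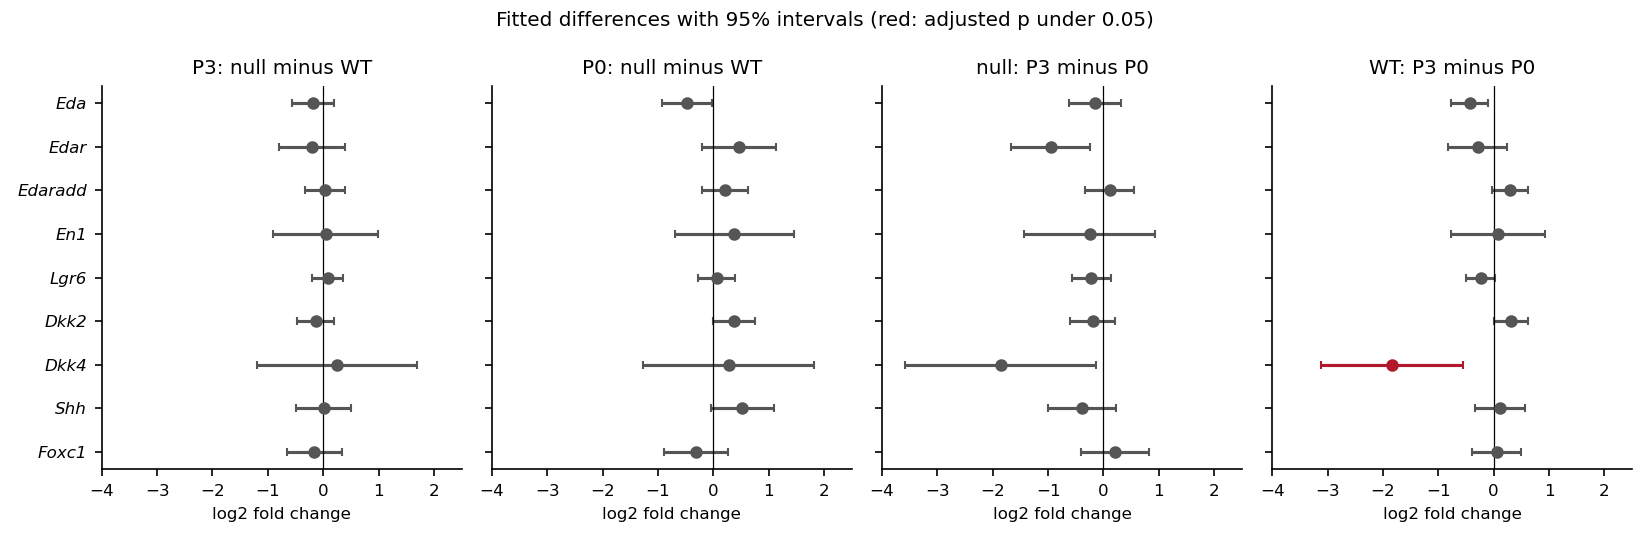
Fitted log2 fold changes of the 9 tested genes with 95% intervals, for genotype on P3 and on P0 (Krt9 null minus WT) and for the day in Krt9 null and in WT paws (P3 minus P0). Dkk4 in WT paws, at -1.83, is the 1 value past the adjusted threshold (red), and its intervals are the widest in all 4 panels.

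Of the 13 other secreted Wnt inhibitors and their co-receptors, 3 were called higher and 1 lower on P3 in WT paws, with a list median of -0.11. Among all genes, 8.49% were called higher and 8.07% lower. Sost, the bone Wnt inhibitor sclerostin, averaged 4.55 ± 0.524 CPM in P3 WT paws (SD, n = 5) and 0.886 ± 0.309 CPM in P0 WT paws (SD, n = 4), a log2 difference of 2.34 (SE 0.39, edgeR's adjusted p = 0.00202). Dkk1, of the same family as Dkk4, averaged 12.1 ± 0.632 CPM in P3 WT paws and 6.35 ± 1.86 CPM in P0 WT paws (SD, n = 5 and 4). Its log2 difference was 0.92 (SE 0.20, edgeR's adjusted p = 0.00714), in the opposite direction to Dkk4. Sostdc1, an inhibitor of Wnt and BMP signals in skin appendages, was 1.53-fold higher (adjusted p = 0.0172), and Dkk3, a divergent Dkk relative, had -0.46. Without WT replicate 3 of P0, 2 of the list were called higher and 0 lower. The share of all genes called in that fit is not given here.

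Of 25 Wnt ligands, receptors and targets, 6 were called lower and 0 higher on P3 in WT paws by edgeR, with a median log2 difference of -0.20, and DESeq2 called 7 lower and 1 higher. Among all genes edgeR called 8.07% lower and 8.49% higher, and DESeq2 called 21.7% in either direction. The ligand Wnt4 averaged 99.5 ± 9.88 CPM in P3 WT paws and 190 ± 65.1 CPM in P0 WT paws (SD, n = 5 and 4), a log2 difference of -0.93 (SE 0.18, edgeR's adjusted p = 0.00391). The epidermal ligand Wnt7b averaged 47.0 ± 6.11 CPM in P3 WT paws and 96.8 ± 29.5 CPM in P0 WT paws (SD, n = 5 and 4), a log2 difference of -1.04 (SE 0.21, adjusted p = 0.00584). Znrf3, a membrane ubiquitin ligase that removes Wnt receptors, had -0.61 and the ligand Wnt10b -0.53. Sp5 and Axin2, both direct targets of the pathway and named after their values were seen, had -1.49 and -0.64, with edgeR's adjusted p = 0.0184 and 0.0418. Without WT replicate 3 of P0, 2 of the 25 were called lower, and without replicate 1 of P0, 3 lower and 1 higher. For these fits the share of all genes called is not given here.

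**Figure D3:**
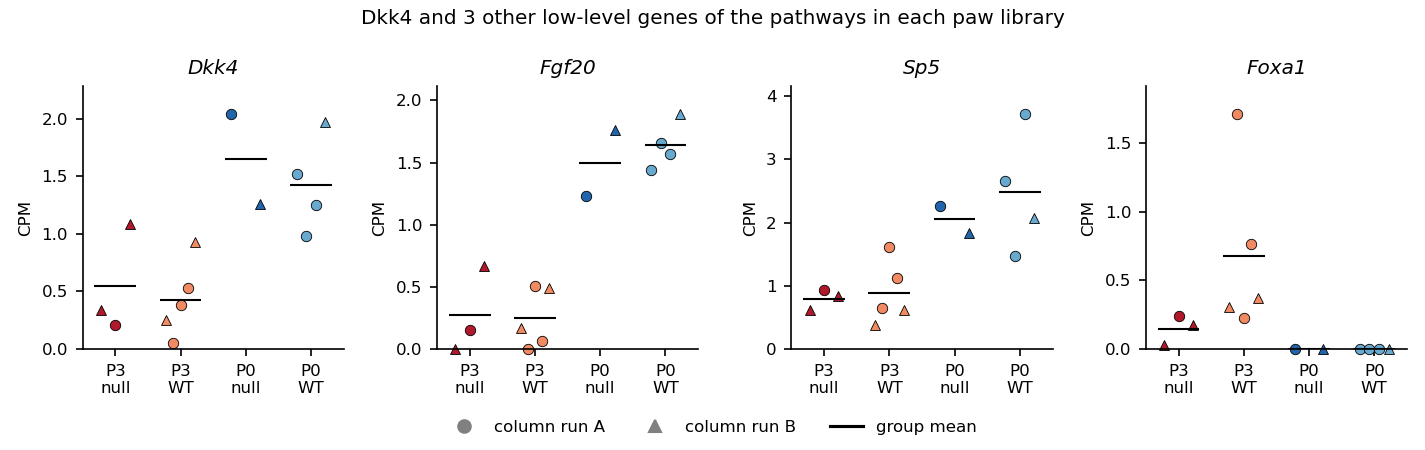
CPM of Dkk4, Fgf20, Sp5 and Foxa1 in each library, on linear axes from 0, with groups, run symbols and mean bars as in the plot of the 10 genes. Dkk4 and Fgf20 are lower in all P3 WT libraries than in any P0 WT library, Sp5 overlaps in 1 pair of libraries, and Foxa1 has 0 counts in all 6 P0 libraries.

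The hedgehog ligand Shh (ENSMUSG00000002633.5, chromosome 5), made by hair and sweat gland buds, lay at 10.4, 12.99 and 11.9 CPM in P3 Krt9 null paws and at 7.26, 10.6, 16.3, 12.9 and 11.9 CPM in P3 WT paws. The P0 libraries held 18.1 and 12.9 CPM in Krt9 null paws and 11.2, 9.70, 11.4 and 10.9 CPM in WT paws. The 4 P0 WT values were within a narrow range, and both P0 Krt9 null libraries lay above them, while 11.3% of all tested genes did not overlap in this comparison. The genotype difference was 0.01 on P3 (SE 0.22, edgeR's adjusted p = 1.00) and 0.52 on P0 (SE 0.25, 1.43-fold, adjusted p = 0.831). Without Krt9 null replicate 1 of P0 the P0 difference was 0.22. The day difference was -0.39 in Krt9 null paws and 0.12 in WT paws, neither called.

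Of 13 other hedgehog pathway genes, 4 were called lower and 1 higher on P3 in WT paws, with a median of -0.31. Among all genes, edgeR called 8.07% lower and 8.49% higher. The targets Ptch1, the Shh receptor, and Gli1, a transcription factor, averaged 133 ± 19.1 and 53.7 ± 15.4 CPM in P3 WT paws and 195 ± 41.3 and 78.5 ± 8.10 CPM in P0 WT paws (SD, n = 5 and 4). Their log2 differences were -0.57 (edgeR's adjusted p = 0.0196) and -0.55 (adjusted p = 0.0440), while Shh itself had 0.12 (95% interval -0.33 to 0.57). The co-receptor Boc and the transcription factor Gli3 had -0.48 and -0.61. Hhip, a membrane protein that binds and holds back the ligand, is also a target of the pathway. It averaged 61.4 ± 5.82 CPM in P3 WT paws and 38.2 ± 5.54 CPM in P0 WT paws (0.67, edgeR's adjusted p = 0.0159). The groups did not overlap, as in 16.7% of all tested genes. The number called lower was 0 by edgeR without WT replicate 1 or 2 of P0, 1 without WT replicate 3 of P0 or 5 of P3, and 7 without WT replicate 3 of P3 and by DESeq2 with all libraries. With library size scaling alone, which moved the median of all genes by 0.10 in this comparison, 1 was called lower. DESeq2 called 21.7% of all genes in either direction. For the other fits this share is not given here, and a change in the count is not a result about the list.

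En1 (ENSMUSG00000058665.9, chromosome 1), the homeobox factor of ventral limb ectoderm, lay at 8.56, 15.9 and 13.6 CPM in P3 Krt9 null paws and at 5.53, 14.3, 17.4, 18.4 and 7.20 CPM in P3 WT paws. On P0 it lay at 21.2 and 9.75 CPM in Krt9 null paws and at 9.33, 10.8, 16.3 and 11 CPM in WT paws. The spread within each group was as wide as the range between the groups, and all ranges overlapped. Genotype differences were 0.04 on P3 (95% interval -0.90 to 0.99) and 0.38 on P0 (-0.70 to 1.45), and day differences were -0.25 in Krt9 null and 0.08 in WT paws. With edgeR, each had an adjusted p of at least 0.866.

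En1 was the 1 gene of the 9 called for the column run, 0.90 higher in run A on the log2 scale (SE 0.23, edgeR's adjusted p = 0.0126). It averaged 15.4 ± 3.92 CPM in run A (SD, n = 8) and 9.28 ± 2.86 CPM in run B (SD, n = 6). The 2 lowest WT libraries of P3, replicates 1 and 5, were those of run B. Its transcript has 57.5% GC, more than 89.6% of the tested genes, whose median is 49.4%. The part of GC content in the run difference was not tested. Within run A, with 1 Krt9 null library of P3, the P3 genotype difference of En1 was -0.07 (edgeR's adjusted p = 1.00). Within run B it was 0.79 and called (adjusted p = 0.00332), in a fit of 6 libraries with 1 residual degree of freedom that called 8.77% of all genes.

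Of 14 dorsoventral limb and BMP genes, 2 were called lower and 1 higher on P3 in WT paws, with a median of 0.00. This is near the share over all genes, 16.6% in either direction, and is not a result about the list. Bmp2 averaged 24.8 ± 1.62 CPM in P3 WT paws and 42.8 ± 11.5 CPM in P0 WT paws (SD, n = 5 and 4), a log2 difference of -0.79 (SE 0.17, edgeR's adjusted p = 0.00732). The BMP antagonist Fst had -0.42 (adjusted p = 0.0415). Msx2, a BMP target that is also in the hair follicle list, was higher by 2.99-fold (adjusted p = 0.0126).

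Foxc1 (ENSMUSG00000050295.5, chromosome 13), a forkhead factor needed in mice for open sweat ducts and also expressed in mesenchyme, lay at 30.8, 38.5 and 17.5 CPM in P3 Krt9 null paws and at 40.1, 40.3, 31.3, 33.7 and 26.6 CPM in P3 WT paws. In P0 paws the values were 33.6 and 19.4 CPM in Krt9 null paws and 31.8, 34.0, 36.3 and 26.7 CPM in WT paws. The 2 lowest of the 14 values were of Krt9 null paws, replicate 3 of P3 and replicate 2 of P0, both of run B. The genotype difference was -0.16 on P3 (SE 0.22, edgeR's adjusted p = 0.966) and -0.31 on P0 (SE 0.26, adjusted p = 0.874), and the ranges overlapped. The P3 difference was 0.17 within run A, and -0.48 and called within run B (edgeR's adjusted p = 0.00373, 1 residual degree of freedom, with 8.77% of all genes called). The day differences, 0.21 in Krt9 null and 0.06 in WT paws, were not called.

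Foxi1 (ENSMUSG00000047861.3, chromosome 11), a forkhead factor of acid-secreting ionocytes in other epithelia, had 2 counts in P3 Krt9 null replicate 2, 1 count in P3 Krt9 null replicate 3, 1 count in P3 WT replicate 2 and 0 in the other 11 libraries. A count of 0 allows up to 3 counts, which is 0.0722 to 0.113 CPM in these libraries, for counting error only. No fold is given, since every group was at or under this floor. A difference in Foxi1 was not detectable at this depth.

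Of 22 tested genes of the sweat gland and ion transport list, 6 were called higher and 0 lower on P3 in WT paws by edgeR, with a median of 0.42, and limma voom called 4 and DESeq2 called 7 higher. Among all genes edgeR called 8.49% higher and 8.07% lower, and DESeq2 called 21.7% in either direction. The share called by limma voom is not given here. Foxa1, a forkhead factor of the secretory coil, had 0 counts in all 6 P0 libraries. It lay at 0.0279, 0.242 and 0.176 CPM in P3 Krt9 null paws and at 0.303, 1.71, 0.222, 0.764 and 0.371 CPM in P3 WT paws. In WT paws, where it was called (edgeR's adjusted p = 0.00707), the P3 mean was 29.5-fold a floor of 3 counts over the P0 group. Replicate 2 held 71 of the 124 counts behind that mean. The P3 mean of Krt9 null paws, from 14 counts, was 3.69-fold the floor of its P0 group, 0.0403 CPM, and the difference was not called. Replicate 1 of these P3 libraries lay below that floor. Both ratios leave out the spread of the P3 libraries, so neither is a lower bound. With Foxa1 at the WT ratio the list median was 0.42 as well. Its RefSeq promoter is shown because it holds the forkhead sequence, in capitals and 141 bases before the start, as 3.65% of promoters do. It lies on the minus strand at chr12:57546062-57546361 (GRCm38.p6).
Foxa1: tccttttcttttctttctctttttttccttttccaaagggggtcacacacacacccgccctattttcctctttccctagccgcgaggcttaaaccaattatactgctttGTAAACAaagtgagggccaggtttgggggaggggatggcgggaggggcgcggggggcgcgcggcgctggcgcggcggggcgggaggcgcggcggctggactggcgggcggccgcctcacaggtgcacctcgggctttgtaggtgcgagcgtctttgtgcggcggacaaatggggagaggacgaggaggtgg

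The prolactin receptor Prlr averaged 10.9 ± 1.79 CPM in P3 WT paws and 3.11 ± 0.66 CPM in P0 WT paws (SD, n = 5 and 4), a log2 difference of 1.79 (SE 0.20, edgeR's adjusted p = 0.000332). It was the 1 gene of the 7 pathway and hair lists called in Krt9 null paws, at 1.32 (SE 0.27, adjusted p = 0.0375). Between the days in Krt9 null paws 0.768% of all genes were called, and this count is not a result about the lists. Elf5, a factor of glandular epithelia, was 4.29-fold higher in P3 WT paws and the carbonic anhydrase Car12 was 1.44-fold higher, with edgeR's adjusted p = 0.0204 and 0.0247. Atp6v1b1, a proton pump subunit, and the carbonic anhydrase Car2 were the other called genes of the list. Not all of the list rose. Best2 (-1.38), Chrm3 (-0.57), Sox9 (-0.51), Foxc2 (-0.42), Krt77 (-0.40), Foxi3 (-0.26) and Slc12a2 (-0.19) were lower on P3 in WT paws and not called. Best2 averaged 0.271 CPM in P3 WT and 0.696 CPM in P0 WT paws. The other tested genes of the list had differences above 0. Of 16 hair follicle genes, 12 were called higher and 0 lower, with a median of 2.46, where 8.49% of all genes were called higher and 8.07% lower. Their summed level was 643 to 2715 CPM in P3 WT paws and 217 to 370 CPM in P0 WT paws. Several genes of the sweat gland list are also expressed in hair follicles, and the part of follicles in its counts was not tested. With the epithelial score as a covariate, 1 gene each of the Wnt inhibitor, sweat gland and hair follicle lists was called in WT paws and 0 of the other 4 lists. With litter numbers as a fixed term edgeR called 0 of all 7 lists, and 3 of all genes against 3581 in the main fit. For the epithelial score and for fits without 1 library, the share of all genes called is not given here. A change in a list's count there is not a result about that list. Without WT replicate 3 of P0, 2 of the sweat gland list were called, and without replicate 1 of P0 or 5 of P3, 3 were.

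**Figure D4:**
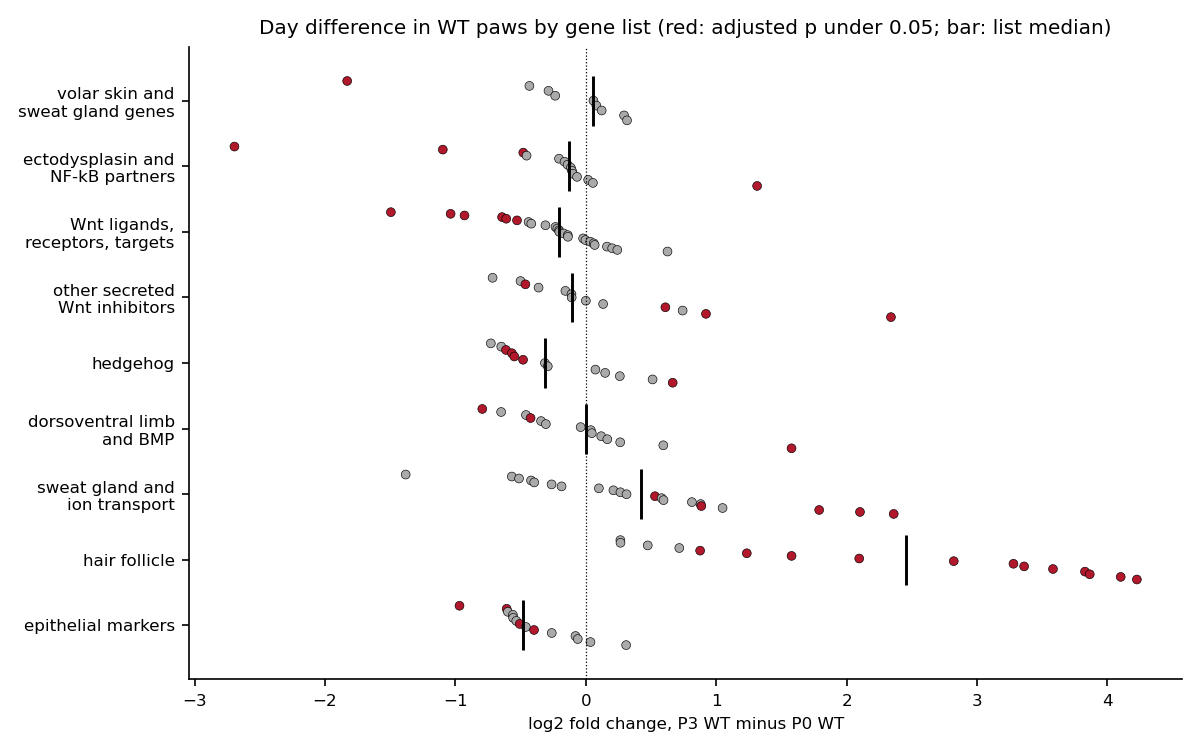
Log2 fold changes between P3 and P0 WT paws of the genes in 9 lists, 1 point per tested gene, red where edgeR's adjusted p was under 0.05, with a bar at the list median. The point of Foxa1, which had 0 counts on P0, is left out, and its list's bar counts it. The 9 tested genes of volar skin and sweat glands centre near 0 with Dkk4 apart at -1.83, while the hair follicle list has a median of 2.46 and the Wnt and hedgehog lists have medians of -0.20 and -0.31.

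Between the genotypes, no gene of the 6 pathway lists and the hair follicle list was called on either day or for the difference between the days by edgeR. Their median genotype log2 differences lay between -0.22 and 0.20 on P3 and between -0.09 and 0.53 on P0, where the highest was that of the hair follicle genes. The median of the 9 tested genes of volar skin and sweat glands was 0.01 on P3 and 0.28 on P0, against -0.01 and -0.00 over all genes.

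Lgr6 (ENSMUSG00000042793.14, chromosome 1), a receptor for R-spondins that marks stem cells of the hair follicle isthmus in mice, lay at 60.2, 57.5 and 51.6 CPM in P3 Krt9 null paws and at 51.9, 52.3, 61.5, 58.7 and 50.2 CPM in P3 WT paws. On P0 it lay at 70.0 and 63.5 CPM in Krt9 null paws and at 66.5, 63.0, 77.6 and 50.04 CPM in WT paws. WT replicate 4 of P0 was the lowest of all 14 libraries and the other P0 libraries exceeded every P3 library. The day difference was -0.22 in Krt9 null paws (SE 0.15, edgeR's adjusted p = 0.536) and -0.23 in WT paws (SE 0.11, adjusted p = 0.174). Without WT replicate 4 of P0 the WT difference was -0.32 and did not pass either, with an adjusted p of at least 0.0509 over all 30 settings of edgeR, limma and DESeq2. The genotype difference was 0.08 on P3 (95% interval -0.20 to 0.36) and 0.06 on P0 (-0.27 to 0.39), the narrowest intervals of the 9 genes on both days.

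The genes whose pattern over the 14 libraries was most like that of each gene were found among 14098 genes of at least 1 CPM on average, by Pearson's r of log2(CPM + 1), for the 8 genes at that level. The libraries share group, depth and column run, so these values are descriptions. Edar was most like Wnt7a (r = 0.93, Spearman's rho = 0.91), Kremen2 (0.91, 0.93) and Has3 (0.89, 0.92), a Wnt ligand, a Dkk receptor and a hyaluronan synthase. Lgr6 was most like Cxcl14 (0.94, 0.93), Wtip and Fam43a, and Foxc1 was most like Unc5b (0.94, 0.92), Fam20c and Rab11fip4. The closest genes were Ryr3, Spata13 and Irs1 for Eda (r from 0.89 to 0.91) and Lig4, Cpsf3 and Thap2 for Edaradd (0.88 to 0.94). En1 was most like Sec14l1 (0.91, 0.93), Trim27 and Radil. Dkk2 was closest to Bmi1, S100a13 and Irf3 (r from 0.89 to 0.90) and Shh to Ncoa5, Ctxn1 and Fzd2 (0.86 to 0.87). None of these 8 genes was among the 3 closest genes of another, and Dkk4 and Foxi1, under 1 CPM on average, were not searched.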

How the data were processed

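RNA of whole paws was sequenced by a contractor after ribosomal depletion, per the labels' protocols. The authors deposited 1 table of unnormalized counts of reads, whole numbers for each gene in each library. Per the submitters' processing notes, STAR 2.7.10a and featureCounts were used with GRCm39, and edgeR and limma are named too. The strand setting was not given in the sources used here, so reads of a gene and of an antisense or overlapping gene cannot be told apart. Of 56691 gene IDs, 52073 matched a symbol in GENCODE M21 (GRCm38), which served for names, chromosomes, exon lengths and GC content. The other 4618 IDs, with 0.623% of counts, stayed in the fit. No column was left without a sample.

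Genes were kept by filterByExpr (21619), scaled with TMM, and tested by the quasi-likelihood method of edgeR 4.0.16 (R 4.3.3, robust dispersions). A single model held the 4 groups and labelled sex over the 14 libraries, leaving 9 residual degrees of freedom. The 5 contrasts were genotype on P3 and on P0, day in Krt9 null and in WT paws, and the interaction. P-values were adjusted by Benjamini-Hochberg over all genes tested. SE is the absolute log2 fold change divided by the root of F, and 95% intervals use SE and 9 degrees of freedom, fewer than the moderated test has. SD is over libraries. P-values measure the spread between these libraries. The fits were tested on simulated counts with known changes set in P3 WT libraries. These counts held no effect of column run or litter, so the test does not cover either.

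The genes and the 15 lists were chosen with earlier results of these data known. All 10 genes were described. From each pathway list up to 4 called genes of smallest adjusted p were to be named, and others were named after their values were seen (Sp5, Axin2, Gli1, Atp6v1b1, Car2, Krt9, Krt19). Alternatives were other scaling, filters, DESeq2 1.42.0, limma 3.58.1 voom, plain dispersions, no term for sex, an epithelial score (mean log2(CPM + 1) of 14 markers), only the groups compared, litter blocks, 2 litter mates summed, the column run, and leaving out each library. Labelled litter numbers recur on both days without a statement that they are the same litter. Residual correlations of equal numbers were -0.09 to 0.17. Within a day only Krt9 null and WT replicates 1 of P0, and WT replicates 2 and 3 of P3, share a number. Their residual correlations were 0.17 and -0.04. On these pairs alone rests limma's consensus correlation of 0.555 with litters taken by day, so it is a poor measure of likeness within litters. With numbers shared by the days it was -0.05. Python 3.11.15, pandas 2.3.3, NumPy 2.4.6 and matplotlib 3.10.9 did the rest.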

Additional observations from a re-analysis of the deposited data

How the results depend on the processing

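Over the 30 alternative settings the 9 tested genes gave 1339 values over the 5 comparisons, of which 1318 kept their side of the threshold and 0 called values changed sign, while 108 values that were not called did. The 12 calls lost were those of Dkk4 in WT paws between the days. The 9 gained were Eda in WT paws in 4 settings, Dkk2 in WT paws within run A, Edar and Dkk4 in Krt9 null paws with no filter, and En1 and Foxc1 between the genotypes on P3 within run B.

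Against 1 of the 9 genes called between the days in WT paws, 2 were called with a filter of 1 CPM in 4 libraries, with the DESeq2 test, with the column run as a term and within run A alone. Of all genes, the main fit called 16.6%, DESeq2 21.7% and the fit with the run term 25.8%. For the 1 CPM filter, no sex term, the epithelial score, litter within a day and fits without 1 library, this share is not given here. A change in the count is not a result about the 9 genes. The count of the 9 was 0 with no sex term (Dkk4 at -1.76, edgeR's adjusted p = 0.0505) and with the epithelial score as a covariate. It was 0 as well with either replicate block, litter within a day or litter number as a fixed term. It was 0 to 1 when 1 library was left out. The block moved no other count. In Krt9 null paws 2 were called with no filter on low counts, and between the genotypes on P3 2 were called within run B alone, where 1968 of all genes (8.77%) were called, against 1 over all libraries. The fit with no filter called 4.6% of all genes between the days in Krt9 null paws. Other causes were not tested. The litter fixed term, which leaves few residual degrees of freedom, left 3 genes called of all those tested between the days in WT paws, against 3581. DESeq2 gave no adjusted p for Dkk4 in part of the comparisons, and the fit of only the groups compared gives no interaction. Litter numbers do not pair the groups by the labels, and within P0 only litter 1 holds both genotypes.

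Dkk4 (2 to 76 counts per library) and Foxi1 (0 to 2) are limited by depth, and P0 Krt9 null paws by 2 libraries. Within-run fits rest on 1 or 3 residual degrees of freedom.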
